A study of Caenorhabditis elegans with 3 samples.

Results

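The genes described here are the lysozymes, saposin-like proteins, caenacins and related immune effectors of the nematode Caenorhabditis elegans. They were taken by symbol, as every gene named lys, ilys, spp, cnc, abf, irg, thn or sysm with a number, which gave 78 of the 20392 genes in the expression table. They comprised 30 spp, 11 cnc, 10 lys, 8 irg, 6 ilys, 6 abf and 6 thn genes and the single gene sysm-1. The choice was made by name, with earlier results of these data known. Total RNA of whole wild-type N2 worms was sequenced after removal of ribosomal RNA. The worms had grown at 25 °C on OP50, the usual bacterial food, and were taken at the 29 h time point, in the middle of L4, the last larval stage. The study held 1 group of 3 untreated libraries, described as independent, so no infection, genotype or time was compared and no p-value is given. Values are TPM, a measure of transcript abundance that the authors normalised to transcript length and library total. The read depth behind them is unknown, and errors are the SD over the 3 libraries.

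Many of these genes encode small proteins known or predicted to be secreted and to act on microbes. Lysozymes cut the peptidoglycan of bacterial cell walls. C. elegans has a set related to lysozymes of protists (lys) and a set of the invertebrate type (ilys). Saposin-like proteins (spp) include the caenopores, which open pores in bacterial membranes and also serve in killing the bacteria eaten as food. Caenacins (cnc) are small glycine-rich peptides, several of them made in the epidermis. The abf genes encode antibacterial factors with disulphide bridges, the thn genes resemble the thaumatins of plants, and irg stands for infection response gene, a name given for induction by pathogens and not for a shared protein domain. In the intestine, the p38 MAPK cascade and GATA factors such as ELT-2 are known regulators of many of these genes. In the epidermis, DBL-1, a TGF-beta ligand, is known to act on some caenacins.

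Every marker listed for intestine (8 of 8), epidermis (7 of 7), pharynx (5 of 5), body wall muscle (4 of 4), neurons (5 of 5) and coelomocytes (3 of 3) reached 1 TPM in all libraries, and none was listed at 0. Over all genes of the table, 61.1% reached 1 TPM in all libraries. Each library summed to 1000000 TPM. The libraries did not carry the same amount of molting and sperm RNA. The summed level of 10 molting genes was 1204, 781 and 335 TPM in replicates 1, 2 and 3, and that of 31 major sperm protein genes was 2209, 864 and 500.2 TPM. Of the detected genes of these lists, 9 of 10 and 29 of 29 were highest in replicate 1, beside 39.8% of all detected genes.

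Of the 78 immune genes, 46 (59%) were detected, meaning that they had at least 1 TPM in every library, beside 61.1% of all genes in the table. This share was close to the background. A further 23 genes were above 0 without reaching that level in every library, and 9 (11.5%) were listed at 0 in all 3 libraries, beside 6.19% of all genes. Levels of 10 and 100 TPM were reached by a larger share of the immune genes than of the whole table. A mean of 10 TPM or more was found for 40 immune genes (51.3%), beside 29.9% of all genes, and a mean of 100 TPM or more for 14 (17.9%), beside 4.3% of all genes. The median log2(TPM + 1) was 3.52 over the immune genes and 2.16 over all genes.

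Together the 78 genes held 0.988%, 0.829% and 0.799% of TPM in replicates 1, 2 and 3, or 0.872% ± 0.101 (SD, n = 3). Saposin-like genes made up 61.1% of that sum, invertebrate-type lysozymes 11.5%, protist-type lysozymes 11.4%, caenacins 7.61% and irg genes 6.95%. The remaining groups were small, at 0.819% for sysm-1, 0.541% for the abf genes and 0.0865% for the thn genes. A few genes carried most of the level. The 4 most abundant genes held 58.2% of the sum, the 10 most abundant 80.8% and the 20 most abundant 92.9%.

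**Figure D1:**
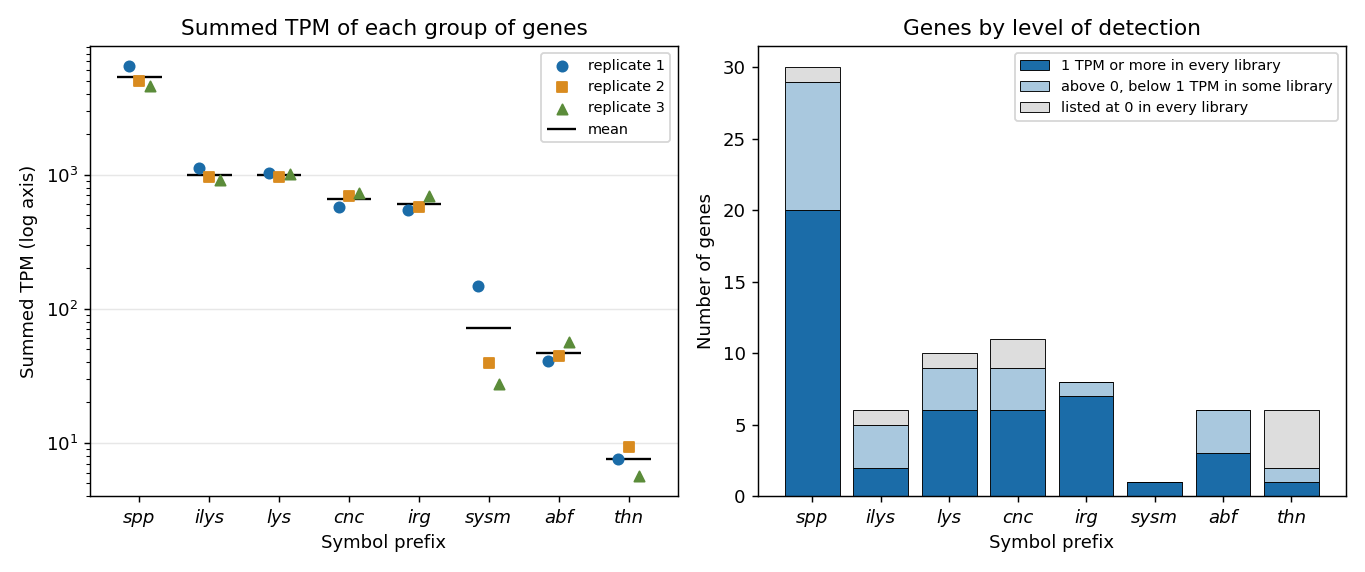
Left, summed TPM of the genes of each symbol prefix on a log axis, with a point per library and a bar at the mean. Right, the number of genes of each prefix that had 1 TPM or more in every library, were above 0 but below 1 TPM in some library, or were listed at 0 in every library. The spp genes stood highest in all 3 libraries, at 4559 to 6412 TPM, and 4 of the 6 thn genes were listed at 0.

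The saposin-like genes were led by spp-14 and spp-5. The gene spp-14 (K09F5.3, chromosome X, 7725979 to 7726383 in WBcel235) had 2167, 1827 and 1652 TPM in replicates 1, 2 and 3, a mean of 1882 ± 262 TPM (SD, n = 3), and ranked 99 among all genes. The gene spp-5 (T08A9.9, X, 7319937 to 7320354), which encodes a caenopore that permeabilises bacteria in the intestine, had 1819.6, 1277 and 1187 TPM, a mean of 1428 ± 342 TPM. Their ranges overlapped, but spp-14 was higher than spp-5 in each of the 3 libraries. Together they held 62.1% of the TPM of the spp genes. Both encode proteins of 103 residues.

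Next in this group came spp-17 (C54G6.5, chromosome I, 1016405 to 1017176) with 1012, 708 and 621 TPM, and spp-3 (T08A9.7, X, 7314969 to 7315353) with 421, 373 and 347 TPM. The lowest library of spp-17 lay above the highest of every saposin-like gene except spp-14 and spp-5. Then followed spp-10 with 167 ± 6.76 TPM, spp-4 with 109.9 ± 25.1 TPM, spp-23 with 88.8 ± 28.5 TPM and spp-1 with 83.9 ± 27.0 TPM (SD, n = 3 each). The protein of spp-1 was among the first of the family shown to kill bacteria. Of these, spp-10 was among the 3 detected immune genes that varied least, with 170.2, 172 and 159.6 TPM.

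The other saposin-like genes at 10 TPM or more were spp-18 (80.5 ± 28.6 TPM), spp-31 (75.3 ± 6.72), spp-2 (59.3 ± 5.24), spp-8 (53.7 ± 7.59), spp-15 (40.5 ± 5.08), spp-28 (19.4 ± 2.78), spp-13 (19.0 ± 18.98), spp-25 (17.2 ± 2.35), spp-16 (17.2 ± 0.947) and spp-22 (11.2 ± 1.17). The mean of spp-13 fell to 8.56 TPM when replicate 1 was left out. The gene named spp-28 here, R74.10, carries that symbol in Ensembl, and RefSeq spells it ssp-28. Below 10 TPM stood spp-24, which was detected at 7.68 ± 2.71 TPM, and spp-19 at 2.53 ± 0.322 TPM. Of the 30 spp genes, 20 (66.7%) were detected, close to the 61.1% of all genes, and 9 more were above 0. Only spp-30 was listed at 0 in all libraries. Among the low genes was spp-12, known for activity against Bacillus thuringiensis, with 0, 0.462 and 0.278 TPM. Another was spp-9, which was above 0 in replicate 2 alone, at 0.301 TPM.

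Protein size split the saposin-like genes. By annotated coding sequence, 26 of the 30 encode 90 to 200 residues and 4 encode more than 300. The long ones were spp-10 (429 residues), spp-8 (402), spp-11 (384) and spp-7 (322), and their levels were far apart. Beside the means of spp-10 and spp-8 given above, spp-11 had 0.154, 0.102 and 0.0368 TPM, and spp-7 had 2.85, 1.42 and 0.259 TPM. The genes spp-10 and spp-8 lie next to each other on chromosome IV (8477180 to 8483621).

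The invertebrate-type lysozymes rested on a single gene. The gene ilys-5 (F22A3.6, X, 6533490 to 6536840) had 1112, 954 and 898 TPM, a mean of 988 ± 111 TPM (SD, n = 3), and held 98.8% of the TPM of the 6 ilys genes. Its annotated transcripts measure from 345 to 1162 nt, so its TPM depends on how reads were divided among them. The only other detected member was ilys-4, with 12.1, 7.79 and 11.6 TPM. The gene ilys-3, known as a peptidoglycan-cutting lysozyme of the pharynx and intestine, had 1.39, 0.596 and 1.43 TPM. Its neighbours ilys-2 and ilys-1 had means of 0.771 and 0.0387 TPM, and ilys-6 was listed at 0.

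Among the protist-type lysozymes, lys-1 was highest (Y22F5A.4, chromosome V, 10277904 to 10279056), with 486, 349 and 327 TPM and a mean of 387 ± 85.9 TPM. It was followed by lys-2 with 249.6, 178 and 213 TPM, lys-4 with 53.2, 222 and 287 TPM and lys-8 with 211, 182 and 154 TPM. The means of lys-2, lys-4 and lys-8 were 213 ± 35.8, 187 ± 121 and 182 ± 28.3 TPM, and their ranges overlapped. The gene lys-8 is known to respond to DBL-1 signalling. The gene lys-7, which is known to affect resistance to several pathogens, was much lower, with 15.9, 13.7 and 8.50 TPM. The genes lys-3, lys-6 and lys-5 had means of 5.27, 2.90 and 2.57 TPM, lys-10 had 0.0532 TPM, and lys-9 was listed at 0 in every library.

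Among the caenacins, cnc-8 stood apart from the others (F41E7.8, X, 10306595 to 10306951). It had 353, 484 and 540.04 TPM, a mean of 459 ± 95.8 TPM (SD, n = 3), and held 69.2% of the TPM of the 11 cnc genes. Its lowest library lay above the highest of any other caenacin. Then came cnc-10 (58.3 ± 11.2 TPM), cnc-3 (46.1 ± 32.6), cnc-2 (36.3 ± 7.81), cnc-7 (30.1 ± 4.39) and cnc-4 (29.6 ± 1.69). The gene cnc-2, which is induced in the epidermis by fungal infection through DBL-1, had 29.0, 44.6 and 35.3 TPM. Its range overlapped those of cnc-3, cnc-7 and cnc-4. Without replicate 1 the mean of cnc-3 was 28.6 TPM. The remaining caenacins were not detected. Of these, cnc-11 had 0, 5.01 and 4.53 TPM, cnc-9 and cnc-6 were above 0 in replicate 3 alone, at 1.86 and 0.0981 TPM, and cnc-1 and cnc-5 were listed at 0.

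The antibacterial factors, thaumatin-like genes and infection response genes spanned a wide range. The abf genes were led by abf-5 with 13.1, 20.3 and 27.5 TPM, abf-6 with 11.6, 13.5 and 17.9 TPM and abf-1 with 13.7, 9.13 and 8.24 TPM. The gene abf-2, whose peptide is known from the pharynx, had 1.56, 0.869 and 1.31 TPM, and abf-4 and abf-3 had means of 0.432 and 0.438 TPM. Of the thaumatin-like genes, thn-2 was detected at 6.89 ± 1.88 TPM and thn-1 had 0.401, 0.751 and 0.799 TPM. The genes thn-3 (annotated as a pseudogene), thn-4, thn-5 and thn-6 were listed at 0.

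Of the 8 infection response genes, 7 (87.5%) were detected, beside 61.1% of all genes. The highest was irg-8 (ZK6.11, chromosome V, 415870 to 417706) with 256, 316 and 455 TPM, a mean of 343 ± 102 TPM (SD, n = 3). It was followed by irg-7, a gene linked to p38-dependent defence against Pseudomonas aeruginosa, whose protein of 2217 residues is the longest of the 78 genes. The level of irg-7 was steady, at 125, 117 and 127 TPM. The genes irg-5 and irg-4, both known targets of the p38 pathway, had 66.0 ± 32.4 and 41.1 ± 9.55 TPM. The genes irg-1 and irg-2, which are known to be induced by Pseudomonas aeruginosa through the transcription factor ZIP-2, were lower, at 19.5 ± 16.7 and 4.31 ± 3.73 TPM. Replicate 3 carried these means, which were 10.02 and 2.17 TPM without it. The gene irg-3 had 9.33 ± 2.34 TPM, and irg-6 was lowest with 0.115, 0.0871 and 0.0157 TPM. The gene sysm-1 (T24B8.5, chromosome II, 9082626 to 9083193), whose promoter is widely used to report p38 activity, had 148, 39.1 and 27.3 TPM. Its mean was 71.4 ± 66.4 TPM, and 33.2 TPM without replicate 1.

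**Figure D2:**
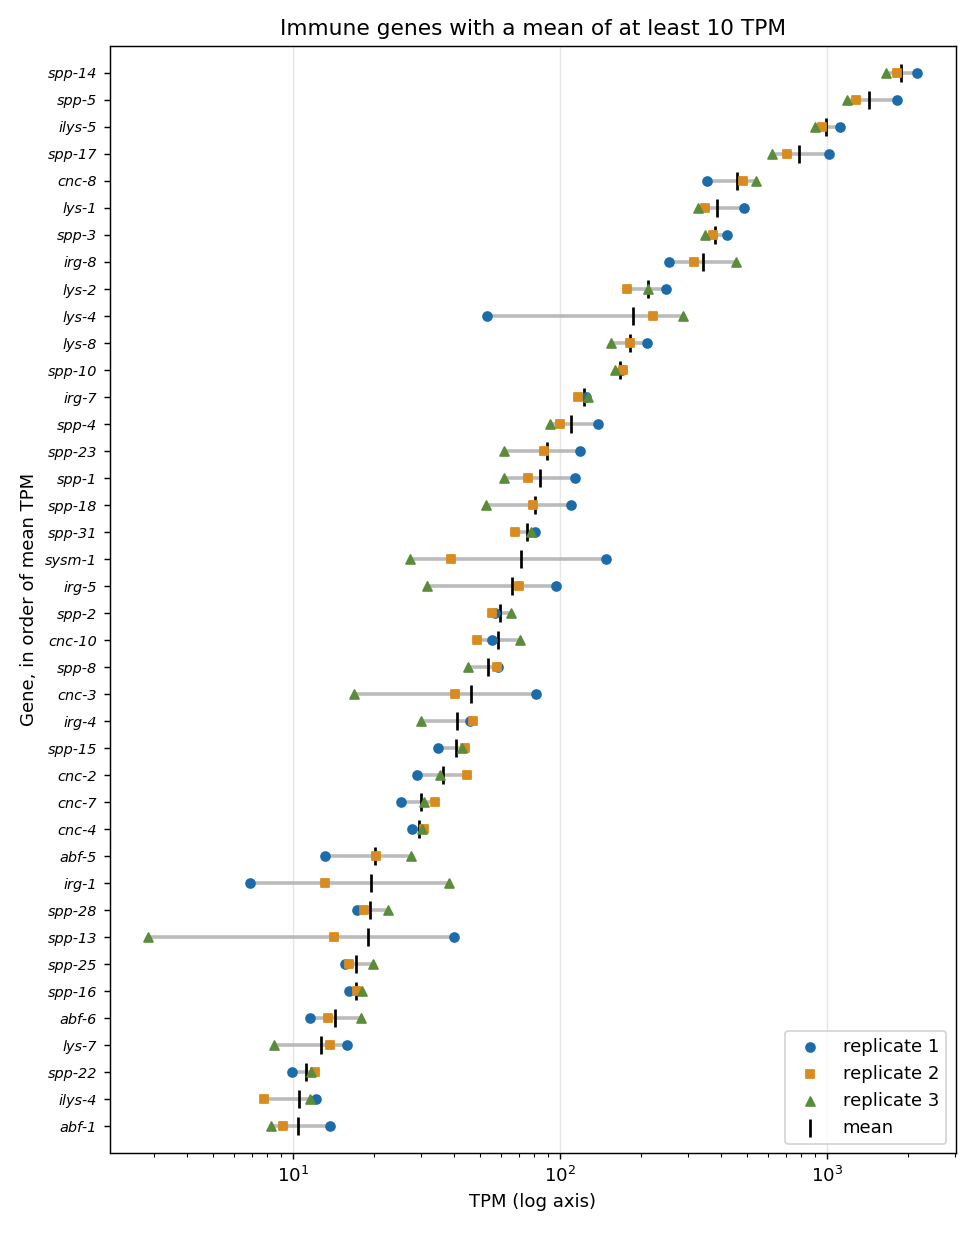
TPM on a log axis of the 40 immune genes that averaged 10 TPM or more, in order of their mean, with a point per library, a grey line over the range and a black tick at the mean. The ranges overlapped between most neighbours in this order. The widest were those of spp-13, irg-1, sysm-1, lys-4 and cnc-3.

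In the order of the 40 genes at 10 TPM or more, most neighbours did not differ beyond their spread. Of 39 neighbouring pairs, 5 had ranges that did not overlap over the 3 libraries. These were spp-5 above ilys-5, spp-17 above cnc-8, irg-8 above lys-2, spp-10 above irg-7 and cnc-4 above abf-5. Within libraries, the upper gene of a pair was higher in all 3 for 10 of the 39 pairs, these 5 included. The others were spp-14 above spp-5, ilys-5 above spp-17, spp-4 above spp-23, cnc-2 above cnc-7 and spp-16 above abf-6. The gap of cnc-4 over abf-5 was narrow, with 27.7 TPM in the lowest library of cnc-4 and 27.5 TPM in the highest of abf-5. Of the 40 genes, 9 overlap a protein-coding gene on the opposite strand, among them lys-8, spp-10, spp-1, spp-15, abf-5 and abf-6. Whether the authors' quantification used strand is not stated in the labels, so reads of the partner cannot be set apart.

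The level lay largely on the X chromosome, where 16 of the 78 genes are annotated. Those 16 genes held 63.0% of the summed TPM of the immune genes. Over the whole table, genes on X held 7.87% of TPM, with the TPM of unmatched names counted in the total. They were 13.6% of the matched genes, beside 20.5% of the immune genes. Chromosome V, with 27 immune genes, held 14.8% of the sum, chromosome I 10.8% (7 genes), chromosome IV 7.25% (21 genes) and chromosome III 1.19% (3 genes), with 4 genes on chromosome II. The share of X came from few genes, since spp-14, spp-5, ilys-5, cnc-8 and spp-3, which are among the 8 most abundant, all lie there.

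Many of the genes were neighbours. With a gap of at most 10 kb between members, 38 of the 78 genes fell into 13 clusters of 2 to 6 genes, and 40 stood alone. Levels within a cluster were often far apart. On chromosome X, 5 spp genes lie within 5386 bp (7314969 to 7320354). There spp-5 was highest, at the level given above, spp-3 and spp-4 had means of 380.4 and 109.9 TPM, and spp-2 had 57.1, 55.5 and 65.3 TPM. The gene spp-6, on the other strand, had 0.959, 3.57 and 4.03 TPM. The ratio of spp-5 to spp-4 was nearly constant, at 13.1, 12.8 and 12.9 in replicates 1, 2 and 3. The ratio of spp-5 to spp-6 was not, at 1897, 358 and 295, but spp-6 was below 1 TPM in replicate 1. These pairs were picked from the cluster, and no ratio to spp-3 or spp-2 was computed. The gene spp-2 was highest in replicate 3, where spp-5 was lowest.

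On chromosome V, 6 cnc genes lie within 7842 bp (1442342 to 1450183). The genes cnc-4, cnc-3 and cnc-2 at one end were detected with means of 29.6 to 46.1 TPM. At the other end cnc-1 and cnc-5 were listed at 0 and cnc-11 was listed at 0 in replicate 1 alone. The annotated transcripts of cnc-1 and cnc-5 measure 189 and 207 nt, shorter than those of the other cnc genes. Elsewhere, spp-17 and spp-23 are adjacent on chromosome I with means of 780.3 and 88.8 TPM, and abf-5 and abf-6 on X with 20.3 and 14.3 TPM. The clusters ilys-1 to ilys-3, thn-5 with thn-6 and spp-9 with spp-21 held no detected gene.

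The lysozyme clusters differed in which library was highest. On chromosome V, lys-1, lys-2 and lys-3 lie within 5641 bp (10277904 to 10283544) and all were highest in replicate 1, with 8.10, 4.27 and 3.44 TPM for lys-3. On chromosome IV, lys-4, lys-5 and lys-6 lie within 6519 bp (11621429 to 11627947) and all were highest in replicate 3 and lowest in replicate 1. The gene lys-5 had 0.756, 2.28 and 4.67 TPM and lys-6 had 0.882, 2.93 and 4.88 TPM. Their proportions varied less than their levels. The ratio of lys-4 to lys-6 was 60.3, 75.7 and 58.8. The similarity of these sequences was not measured, and reads shared between close copies are divided by estimate in such quantification.

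**Figure D3:**
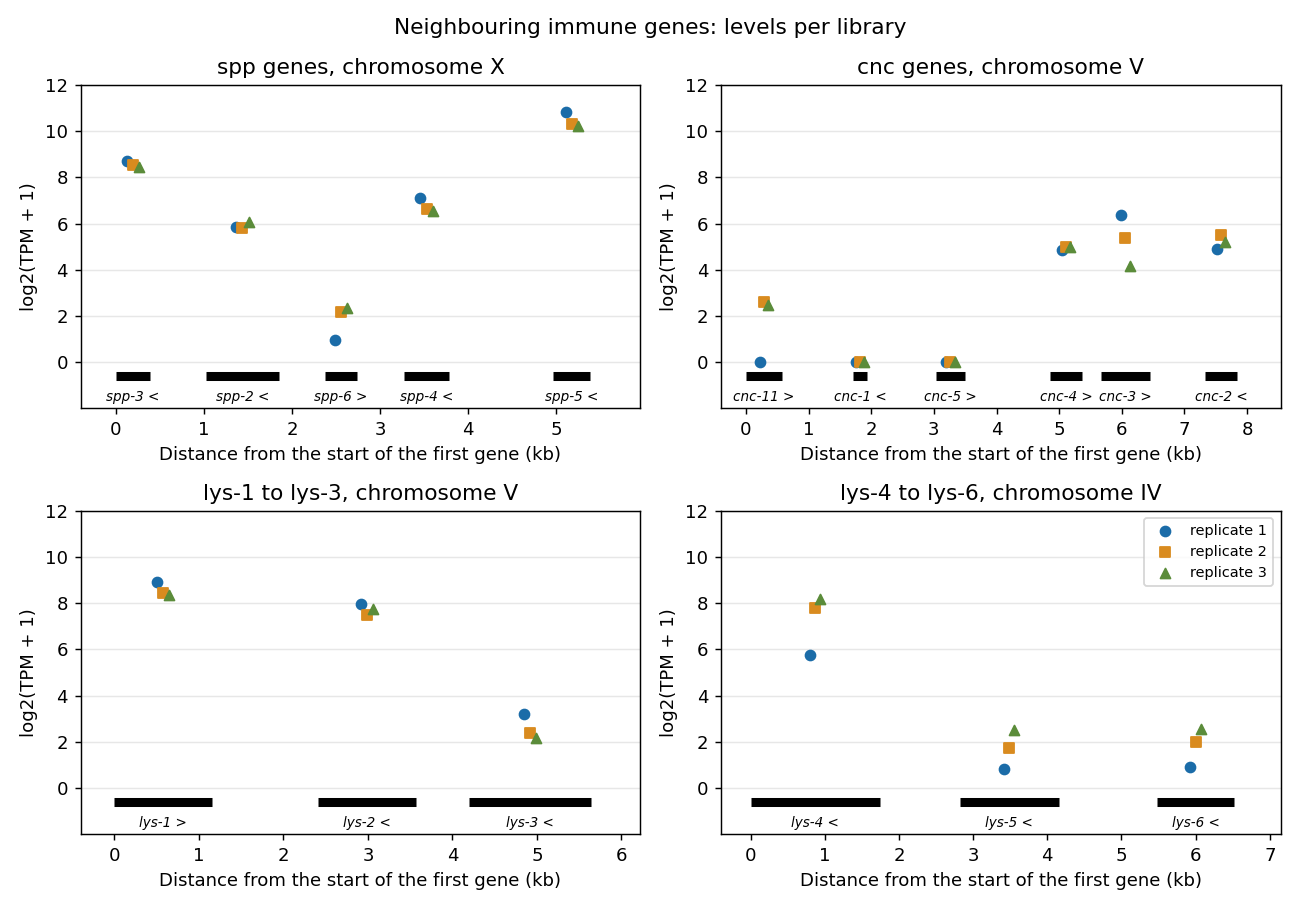
Levels as log2(TPM + 1) of neighbouring genes in 4 clusters against distance in kb from the start of the first gene, with a point per library. Black bars mark the gene spans and the arrowheads beside the names the strand. In the spp cluster spp-5 was highest and spp-6 lowest, cnc-1 and cnc-5 lay at 0, and replicate 1 was the highest library for lys-1 to lys-3 and the lowest for lys-4 to lys-6.

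The immune genes varied between libraries. Of the 46 detected genes, 11 (23.9%) had a highest library at 2 or more times the lowest, beside 15.4% of all detected genes. The median ratio of highest to lowest library was 1.53 over the detected immune genes and 1.26 over all detected genes, and the median coefficient of variation was 22.5% and 12.1%. The count was 4 of 47 detected immune genes without replicate 3, 6 of 51 without replicate 1 and 11 of 48 without replicate 2. A gene's ratio cannot rise when a library is left out, so lower counts are partly built in. The share over all genes was not computed for these settings. The filter of 1 TPM in every library left out genes that were low in a single library, such as lys-5, lys-6, spp-6 and spp-7.

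Of the 11 genes, 6 (54.5%) were highest in replicate 1 and lowest in replicate 3, and 5 (45.5%) were the other way round. Of all detected genes varying 2-fold, 63.2% were highest in replicate 1 and 30.6% in replicate 3. The first kind comprised spp-13, sysm-1, cnc-3, irg-5, lys-3 and spp-18. The widest was spp-13 (F08F1.6, X, 8417419 to 8418524), with 39.9, 14.3 and 2.86 TPM, a ratio of 13.9. For sysm-1 the ratio was 5.41 and replicate 1 stood apart from the other two. For cnc-3, with 81.3, 40.2 and 16.9 TPM, it was 4.81. The gene irg-5 had 96.2, 70.0 and 31.8 TPM, and replicate 3 was low. The gene spp-18 had 109.6, 79.3 and 52.5 TPM, just past the limit at a ratio of 2.09.

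The second kind comprised irg-1, lys-4, irg-2, spp-24 and abf-5. The gene irg-1 (C07G3.2, chromosome V, 3523587 to 3524679) had 6.88, 13.2 and 38.4 TPM, a ratio of 5.58, and irg-2 had 1.82, 2.52 and 8.59 TPM, a ratio of 4.73. In both, replicate 3 stood apart from the other libraries. For lys-4 the ratio was 5.40, and replicate 1 was the library that stood apart. The genes spp-24 (4.75, 8.22 and 10.1 TPM) and abf-5 were just past the limit, with ratios of 2.12 and 2.09. The infection response genes were therefore found on both sides, with irg-5 in the first kind and irg-1 and irg-2 in the second. In whole worms, fewer cells of a type and less RNA per cell cannot be told apart.

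**Figure D4:**
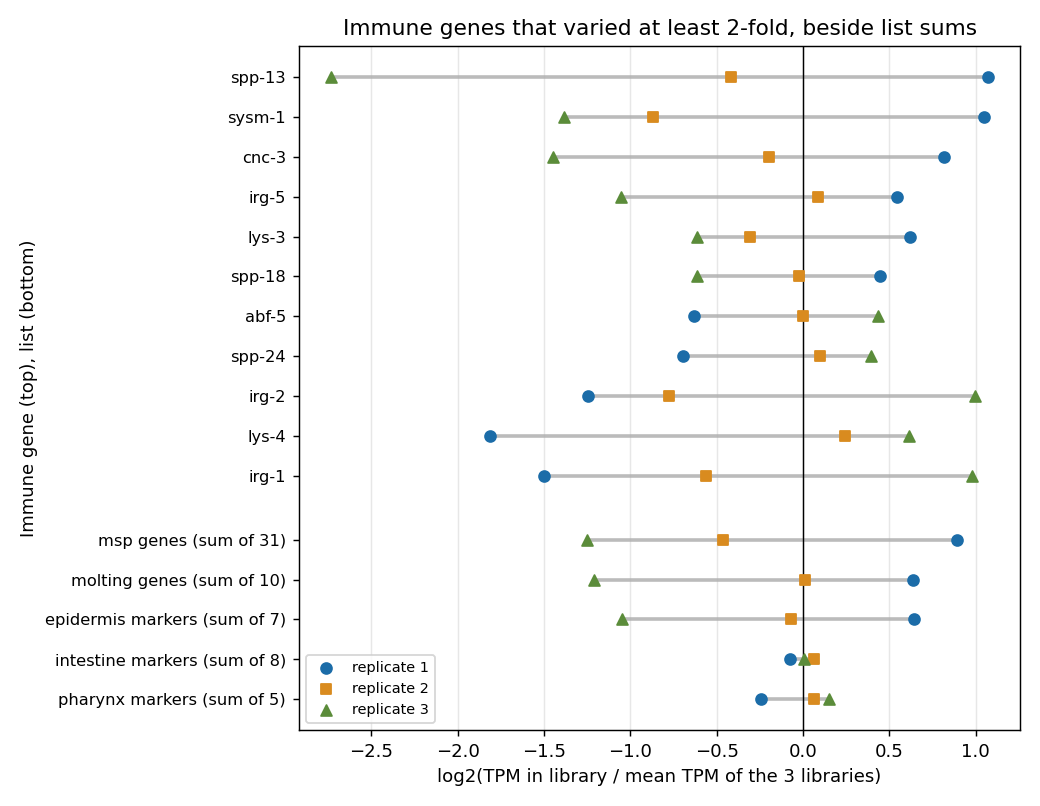
log2 ratio of each library to the mean of the 3 libraries for the 11 immune genes that varied at least 2-fold, above the same ratio for the summed TPM of 5 lists. The upper 6 genes were highest in replicate 1 and lowest in replicate 3, as were the sperm, molting and epidermis sums. The lower 5 genes were lowest in replicate 1 and highest in replicate 3, as was the pharynx sum, in which no gene varied 2-fold. Among sums not drawn, those of body wall muscle, immune transcription factors and the DBL-1 pathway also rose from replicate 1 to replicate 3. That of epidermal damage and infection signalling fell. The intestine sum stayed near 0 in all libraries, though its largest genes were highest in different libraries.

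Over all 46 detected immune genes, 23 (50%) were highest in replicate 1, 9 (19.6%) in replicate 2 and 14 (30.4%) in replicate 3, beside 39.8%, 20% and 40.2% of all detected genes. Replicate 3 was the lowest library for 24 of the 46 (52.2%), beside 36.3% of all detected genes. By group, 11 of 20 detected spp genes, 5 of 6 lys genes and 2 of 2 ilys genes were highest in replicate 1. The spp genes had a summed level of 6412, 5019 and 4559 TPM. The caenacins had 1 of 6 genes highest in replicate 1 and a sum of 572, 687 and 730.4 TPM. The summed lys genes were steady, at 1025, 953 and 1003 TPM, with lys-4 highest in replicate 3 and lys-1, lys-2 and lys-8 highest in replicate 1.

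Some marker lists moved between the libraries as well, and others changed little. The epidermis markers summed to 293, 179 and 90.7 TPM in replicates 1, 2 and 3. Of the 7 markers, 5 were highest in replicate 1, beside 39.8% of all detected genes. Only 3 varied 2-fold, namely rol-6, wrt-2 and dpy-7, the last at 121, 90.8 and 40.6 TPM. The other 2 markers, sta-2 and elt-3, were highest in replicate 3. They had 7.89, 11.8 and 14.3 TPM and 8.04, 8.83 and 10.1 TPM. The pharynx markers summed to 181, 224 and 238 TPM, with 5 of 5 highest in replicate 3, beside 40.2% of all detected genes. None of these 5 varied 2-fold. The intestine markers summed to 4815, 5301 and 5083 TPM, and none of the 8 varied 2-fold. Of the 8, 2 were highest in replicate 1, 3 in replicate 2 and 3 in replicate 3. The largest genes of that sum differed, with 1703, 2414 and 2233 TPM for mtl-2 and 2059, 1793 and 1694 TPM for asp-1. The body wall muscle markers summed to 2241, 2263 and 2319 TPM and the neuron markers to 103.0, 103.7 and 101.0 TPM. The coelomocyte markers summed to 16.5, 19.0 and 17.3 TPM. No marker of these last lists varied 2-fold. The part of the differences in the molting, sperm, epidermis and pharynx lists in the variation of the immune genes was not tested.

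Genes of the signalling pathways above these effectors were all detected, beside 61.1% of all genes. None varied 2-fold, beside 15.4% of all detected genes. All 8 genes of the p38 MAPK list were detected, from atf-7 at 29.1 ± 1.80 TPM (SD, n = 3), the transcription factor at its end, to pmk-2 at 4.47 ± 0.584 TPM. The kinase gene pmk-1 had 9.80, 10.6 and 12.2 TPM. Of the 8, 7 were highest in replicate 3, beside 40.2% of all detected genes. All 11 immune transcription factor genes were detected and 9 were highest in replicate 3, beside the same 40.2%. Their levels ran from zip-2 at 114.5 ± 9.24 TPM to elt-7 at 5.08 ± 0.353 TPM. Differences were small in part, with a ratio of highest to lowest library from 1.04 for skn-1 to 1.81 for sta-2. The gene zip-2 had 109.1, 109.3 and 125 TPM, and its highest library was 1.15 times its lowest. The GATA factor gene elt-2 had 5.53, 6.89 and 8.47 TPM. Of this list, cebp-2 (15.4 ± 2.23 TPM) lies within 10 kb of spp-15. Among the marker genes, ric-4 (20.6 ± 1.26 TPM), a neuronal gene, lies within 10 kb of lys-1 and lys-2.

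All 8 genes of epidermal damage and infection signalling were detected, from rack-1 at 1997 ± 187 TPM to the transporter gene snf-12 at 1.12 ± 0.0874 TPM. The product of rack-1 also binds the ribosome. The pseudokinase gene nipi-3 had 28.4, 28.8 and 38.6 TPM. All 7 genes of the DBL-1 pathway were detected, from the Smad gene sma-4 at 19.0 ± 1.21 TPM to the ligand gene dbl-1 at 2.37 ± 0.260 TPM. Among the molting genes, 9 of 10 varied 2-fold, beside 15.4% of all detected genes. Their levels ran from noah-1 at 355, 243 and 89.0 TPM, the highest, to qua-1 at 11.1, 5.20 and 1.20 TPM, the lowest.

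Of the genes above 0, 3 shared identical values with other genes. Each was above 0 in replicate 3 alone. The gene abf-3, at 1.31 TPM there, shared its values with F14F8.15 and W06G6.12, whose annotated transcripts also measure 270 nt. The gene spp-21, at 0.501 TPM, shared them with 4 genes, and cnc-6 with nhr-9. None of these was detected. Of the 78 genes, 7 have an annotated transcript under 300 nt, for which length normalisation weighs most, among them cnc-7, spp-18 and spp-31 at 10 TPM or more.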

How the data were processed

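RNA of 3 libraries of wild-type L4 worms was sequenced. Trizol extraction, DNase, Ribo-Zero Gold depletion and a stranded kit were used, per the labels' protocols. Reads were quantified with kallisto, per the submitters' processing notes; no version, index, build or annotation is given in the sources used here. The authors deposited TPM per gene and library, and a mean TPM equal to the mean of the 3 columns within 6.67e-06. TPM holds no counts, so depth is unknown and no counting interval was made.

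Sequence names were matched to Ensembl release 115 (WBcel235) and RefSeq, for 20136 of 20392 names in Ensembl, and a symbol from either table was accepted. Coordinates, transcript lengths and residues describe WBcel235 and not necessarily the authors' index. Of 81 symbols fitting the pattern, 3 (spp-27, thn-7 and thn-8) were not analysed here. No sequences were used, so the planned search for GATA motifs was not made.

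Levels are mean ± SD over 3 libraries, log values use a pseudocount of 1, detection means 1 TPM in every library, and ranges over the libraries decide whether neighbours in order are separate. Genes named are those that averaged 10 TPM or more, the highest and lowest of each prefix, the 8 detected genes with the largest and the 3 with the smallest ratio of highest to lowest library, genes with identical values, and a selection of the highest and lowest genes of each list. Other low genes, and the list genes pmk-1, elt-2, nipi-3, dpy-7, rol-6, wrt-2, sta-2, elt-3, asp-1 and skn-1, were named after their values were seen. The genes and lists were chosen with earlier results of these data known. Python 3.11.15, numpy 2.4.6 and pandas 2.3.3 were used, and the code was tested on simulated data. Alternatives were other detection limits, pseudocounts and filters, median-of-ratios rescaling, other totals and leaving out each replicate.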

Additional observations from a re-analysis of the deposited data

How the results depend on the processing

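Results here are levels and counts in 1 group, and no test was lost or gained. The count of detected immune genes (46) ranged from 40 to 53 over detection limits of 0.5 and 5 TPM, a mean of 1 TPM, median-of-ratios rescaling and leaving out each replicate. The count varying 2-fold (11) was 6 with ratios of TPM + 5 and 7 of 40 with a filter of 5 TPM. It was 17 of 78 with no filter and ratios of TPM + 1, and 4 to 11 when a replicate was left out. For a given gene, a larger added constant or fewer libraries cannot raise the ratio, and a stricter filter only removes genes. These falls were therefore largely fixed in direction and do not show what the count depends on. The share over all genes was computed for the main setting only, so whether the immune genes exceed it elsewhere is not known. The median log2 level (3.52) was 3.95 with a pseudocount of 5, 5.22 for genes with a mean of 1 TPM or more, and 3.31 to 3.57 without 1 replicate. The count of neighbouring pairs told apart (5 of 39) was 10 when the same gene had to be higher in each library, a comparison chosen after the data had been seen.

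Shares moved with the total. Without the 100 most abundant genes, which include spp-14, all immune genes held 1.54% of TPM, spp 0.777%, ilys 0.226%, lys 0.224%, cnc 0.1498%, irg 0.137%, sysm-1 0.0160%, abf 0.0106% and thn 0.00171%. Without genes with a transcript under 300 nt, 7 of them immune genes, the shares were 1.29% for all, 0.784% for spp, 0.152% for ilys, 0.151% for lys, 0.0963% for cnc, 0.0921% for irg, 0.00691% for abf and 0.00114% for thn. The counts of genes highest in each replicate stayed within 1.5 times under both of their alternatives. Under rescaling, the mean of each of the 48 genes above 0 that the rule names moved by less than its SD. Leaving out a replicate moved the mean of 5 detected genes by over 1.5 times. Without replicate 1 these were sysm-1 (33.2 TPM), cnc-3 (28.6) and spp-13 (8.56), and without replicate 3 irg-1 (10.02) and irg-2 (2.17). Summing genes with identical values moved 2 of 3. No paired analysis was possible because the series holds 1 group. The depth behind TPM is unknown, so the precision of low values cannot be given.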
